A study of Mus musculus with 14 samples.

Results

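The potassium channel genes of the mouse were examined for peaks of BMI1 and H2AK119ub in Sca1+CD45- cells of the heart. The group was taken by symbol: every protein-coding gene of the RefSeq annotation of GRCm38 whose symbol begins with Kcn, followed by letters and an optional number, Kcnq1 included. This gave 94 genes of 21887 protein-coding genes, and 4 noncoding genes with such symbols were left out. A gene was counted as having a peak when a listed peak overlapped its window, from 5 kb before its lower end to 5 kb past its upper end.

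Chromatin immunoprecipitation with sequencing (ChIP-seq) was done in C57BL/6 mice aged 6 to 8 weeks, on cardiac cells enriched for the Sca1+CD45- phenotype with magnetic beads. The Damage mice were injected intraperitoneally with paraquat, a herbicide that generates superoxide, once at 20 mg/kg in PBS, and the Homeostasis mice with PBS alone. BMI1 and H2AK119ub were each mapped in 3 libraries per treatment, which gave 12 peak lists in 4 groups. The labels also describe a culture of these cells, and it is unclear from them if it came before the crosslinking. They tie no replicate to a mouse, so p-values measure only the spread between these libraries, which may be technical. Peak lists measure no RNA, so the labelled cell phenotype was not checked against marker genes.

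The lists held 39832 peaks, 39615 of them from Homeostasis. Homeostasis BMI1 lists held 4072 to 7513 peaks and Homeostasis H2AK119ub lists 2000 to 13487, of which replicate 1 was the shortest and replicate 2 the longest. The Damage lists held 19 to 68. The authors' score is 1 for every peak and no read counts were used here, so the depth of each library is unknown and intervals cover counting error only.

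Potassium channels are membrane pores that let potassium leave or enter a cell along its gradient, and so set the resting potential and end the action potential. Voltage-gated alpha subunits, calcium- or sodium-activated channels, inward rectifiers and two-pore-domain leak channels form the pores, and auxiliary subunits change their gating and traffic. Polycomb repressive complex 1, of which BMI1 is part, attaches a single ubiquitin to a lysine of histone H2A, and H2AK119ub is that mark. In many cell types this complex is found at CG-rich promoters of silent developmental and ion channel genes.

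Promoter sequence is shown for 3 long voltage-gated genes with repeated peaks, since none of these peaks lay at the start of its gene. Each is the stretch of 250 bases before the start site, 5′ to 3′ on the gene's strand, from RefSeq on GRCm38.p6, with the pair CG in capitals. Kcnd2 (chr6:21215096-21215345, + strand) and Kcnd3 (chr3:105451640-105451889, + strand) encode Kv4 channels of the transient outward current, and Kcnh7 (chr2:63184288-63184537, − strand) encodes a channel of the ERG family.
Kcnd2: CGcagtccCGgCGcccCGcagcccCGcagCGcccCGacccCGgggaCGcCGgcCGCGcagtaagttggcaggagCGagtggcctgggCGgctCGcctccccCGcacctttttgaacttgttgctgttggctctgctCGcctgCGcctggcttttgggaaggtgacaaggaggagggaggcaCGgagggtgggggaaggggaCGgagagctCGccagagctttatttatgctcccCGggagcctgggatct
Kcnd3: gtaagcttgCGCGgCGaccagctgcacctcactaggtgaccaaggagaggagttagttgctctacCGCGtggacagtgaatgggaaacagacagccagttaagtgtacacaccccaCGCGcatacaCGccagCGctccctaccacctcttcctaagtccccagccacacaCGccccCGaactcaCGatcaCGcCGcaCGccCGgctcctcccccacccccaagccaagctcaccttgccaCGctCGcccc
Kcnh7: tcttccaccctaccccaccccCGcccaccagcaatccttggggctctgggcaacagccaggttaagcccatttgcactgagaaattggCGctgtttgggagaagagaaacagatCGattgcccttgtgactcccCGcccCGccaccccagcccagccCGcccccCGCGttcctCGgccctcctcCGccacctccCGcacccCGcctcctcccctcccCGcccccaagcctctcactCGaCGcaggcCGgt

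The pair CG, which reads the same on both strands, occurred 22 times in the Kcnd2 stretch, 18 times in Kcnd3 and 16 times in Kcnh7. Over all 21263 promoter windows of protein-coding genes in the table, 93.4% held at least 1 such pair in the same stretch and the median was 10. The windows of potassium channel genes had a median of 7. As many pairs as in Kcnd2 were found in 19.5% of all windows, as many as in Kcnd3 in 29.0%, and as many as in Kcnh7 in 34.1%. The table held promoter windows, which also include 50 bases after the start, for 69 of the 94 genes. None of these windows met a peak in any of the 12 lists. Over all genes in the table a promoter window met a peak in 17 of 17492 genes (0.0972%), so almost no gene of any kind held a listed peak at its start.

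At Homeostasis, 29 of the 94 genes (30.9%) held a peak in at least 1 of the 6 lists, against 19.3% of all protein-coding genes. A BMI1 peak in 2 or more of the 3 libraries was found for 14 genes (14.9%), against 7.34% of all genes. The same count for H2AK119ub was 16 genes (17.0%), against 9.63% of all genes. Both counts were met by 12 genes (12.8%, against 6.54%), BMI1 alone by 2 and H2AK119ub alone by 4. The H2AK119ub count was 8 genes when replicate 2 or replicate 3 was left out and a peak was required in both remaining libraries, one of which was then the short list of replicate 1. A peak in all 6 lists was found for 7 genes (7.45%, against 2.55%). These 7 were Kcnd2, Kcnd3, Kcna6 and Kcnq1 among the voltage-gated subunits, the auxiliary subunit gene Kcnip1, the inward rectifier Kcnj16 and the calcium-activated channel Kcnma1.

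The channel genes with peaks were longer on the median than those without, with overlapping ranges. The 29 genes with a Homeostasis peak had a median length of 253 kb (4.79 to 1136 kb), and the 65 genes without had a median of 19.7 kb (1.45 to 437 kb). The median was 32.7 kb over all 94 and 17.2 kb over all protein-coding genes. The counts were therefore set against an expectation from gene length, the sum over the channel genes of the share of other protein-coding genes in the same of 10 length classes that held a peak. It came to 11.3 genes for BMI1 (observed over expected 1.24), 14.5 for H2AK119ub (1.1) and 26.7 for any Homeostasis list (1.09). With 20 length classes the ratios were 1.02 for BMI1, 0.91 for H2AK119ub and 0.985 for any list, so the share of channel genes with a peak was close to that of other genes of like length. For a peak in all 6 lists the expectation was 4.08 genes with 10 classes and 5.37 with 20, against the 7 observed. No test was made of these ratios.

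The longest class, 108.54 to 2390.4 kb, held 23 channel genes. Of these, 10 held BMI1 peaks in 2 or more libraries (43.5%; 33.6% of the other genes in the class) and 12 held H2AK119ub peaks (52.2%; 41.7%). This class is wide, and with 20 classes the expectations for the same 23 genes were 10.2 and 12.7, slightly above the observed counts. Of the 71 shorter channel genes, 4 met each criterion, against expectations of 3.58 for BMI1 and 4.95 for H2AK119ub.

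**Figure D1:**
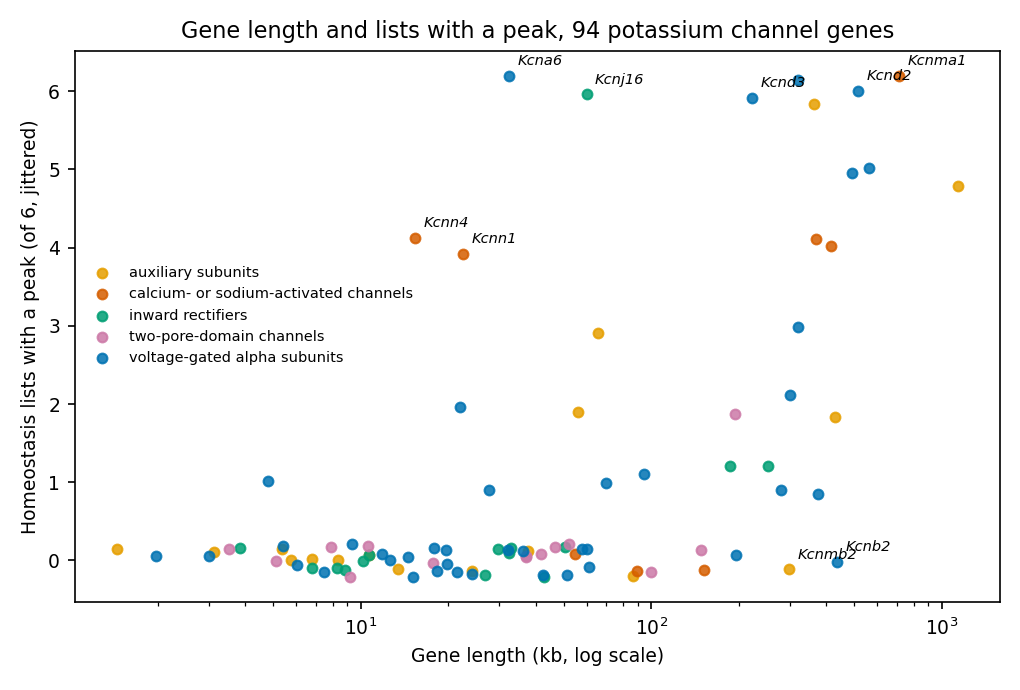
Gene length in kb (log axis) against the number of the 6 Homeostasis lists with a peak (points moved slightly up or down to separate them) for the 94 potassium channel genes, coloured by family. Most genes with peaks in 4 or more lists are longer than 200 kb, while Kcna6, Kcnj16, Kcnn4 and Kcnn1 are shorter and Kcnb2 and Kcnmb2 are long genes with no peak.

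The channel genes took a like share of every Homeostasis list despite the differing list lengths. For BMI1, 21 of 5020 peaks lay in their windows in replicate 1 (0.418%, exact 95% binomial interval 0.259 to 0.639), 37 of 7513 in replicate 2 (0.492%, 0.347 to 0.678) and 17 of 4072 in replicate 3 (0.417%, 0.243 to 0.668). For H2AK119ub, 11 of 2000 peaks did so in replicate 1 (0.55%, 0.275 to 0.982), 65 of 13487 in replicate 2 (0.482%, 0.372 to 0.614) and 32 of 7523 in replicate 3 (0.425%, 0.291 to 0.6). The means were 0.443% ± 0.0431 (SD, n = 3) for BMI1 and 0.486% ± 0.0624 (SD, n = 3) for H2AK119ub, and the 6 intervals overlapped.

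The number of channel genes with a peak was lowest in the shortest Homeostasis list and highest in the longest. It was 13, 19 and 13 in BMI1 replicates 1, 2 and 3, and 8, 26 and 18 in the H2AK119ub replicates. Each exceeded its length expectation with 10 classes, by 1.14 to 1.32 times for BMI1 and 1.1 to 1.55 times for H2AK119ub. The group means of that ratio were 1.23 ± 0.0863 and 1.27 ± 0.24 (SD, n = 3 each). Ratios per library were not computed with 20 classes. For a peak in 2 or more libraries, 20 classes gave ratios of 1.02 for BMI1 and 0.91 for H2AK119ub. Peaks per megabase of channel gene windows (11.6 Mb in all) were 1.07 to 1.48 times those in the windows of other protein-coding genes (1171 Mb).

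**Figure D2:**
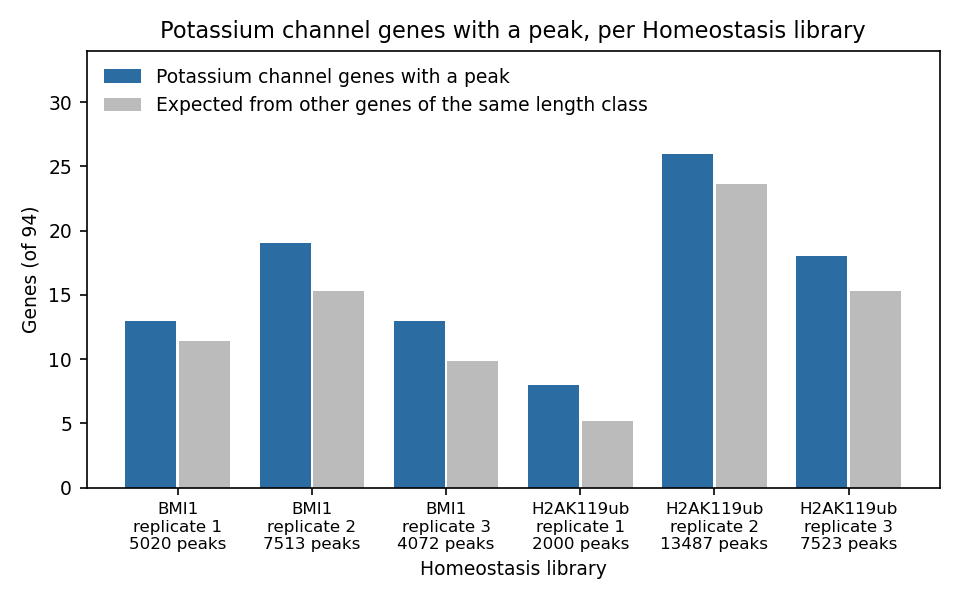
Number of the 94 potassium channel genes with a peak in each Homeostasis library (blue bars) and the number expected from other protein-coding genes in the same of 10 length classes (grey bars), with the number of peaks in each list under its name. The blue bar is the taller in all 6 libraries, from 8 against 5.17 genes in H2AK119ub replicate 1 to 26 against 23.6 in H2AK119ub replicate 2.

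The 183 Homeostasis peaks in channel gene windows were unevenly spread. The 6 genes with the most peaks, Kcnh7, Kcnd2, Kcnma1, Kcnq5, Kcnip1 and Kcnip4, held 103 of them (56.3%). By number of lists with a peak, 65 genes had none, 8 had 1, 5 had 2, 2 had 3, 4 had 4, 3 had 5 and 7 had all 6. Of the 8 genes found in a single list, 7 were in H2AK119ub replicate 2, the longest list, and the other, Kcnh8, was in BMI1 replicate 2.

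Among the 40 voltage-gated alpha subunits, 15 held a Homeostasis peak, 7 met the BMI1 criterion of 2 or more libraries and 7 the H2AK119ub criterion. Their length expectations were 5.18 and 6.68 with 10 classes, and 6.54 and 8.4 with 20. Kcnd2 (chromosome 6, 21215346 to 21729805), which encodes Kv4.2, held 3, 4 and 2 BMI1 peaks and 2, 5 and 3 H2AK119ub peaks in replicates 1, 2 and 3. Its relative Kcnd3 (chromosome 3, 105451890 to 105674002), which encodes Kv4.3, held 1 peak in each of the 6 lists. Kcnq1 (chromosome 7, 143106877 to 143427050), the pore of the slow delayed rectifier and an imprinted gene, also held 1 peak in each.

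Kcna6 (chromosome 6, 126708328 to 126740834), a Shaker-type delayed rectifier, held 1 BMI1 peak in each library and 1, 3 and 2 H2AK119ub peaks. It is 32.5 kb long, and of the other genes in its length class 1.83% held a peak in all 6 lists. Per 100 kb of window and library its peak density was 3.53, against 0.604 in Kcnd2, 0.431 in Kcnd3 and 0.303 in Kcnq1, which are much longer. Some shorter channel genes came nearer, with 2.63 in Kcnn4, 2.05 in Kcnn1 and 1.43 in Kcnj16. The neighbours of Kcna6, Kcna1 and Kcna5, within 208 kb on chromosome 6, held no peak. All BMI1 peaks of Kcna6 lay at 1 site outside the gene, 4.55 kb past its upper end, where all 6 lists met. Inside the gene body it held H2AK119ub peaks of replicates 2 and 3 alone, so its presence in all 6 lists rests on the 5 kb flank. With gene bodies alone, 6 channel genes passed the test between treatments described below, beside 429 of 3252 genes tested.

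Kcnh7 (chromosome 2, 62693410 to 63184287) held 4, 5 and 1 BMI1 peaks and 0, 6 and 5 H2AK119ub peaks. Kcnq5 (chromosome 1, 21398399 to 21962650), which contributes to the M-current of neurons, held 1, 4 and 2 BMI1 peaks and 0, 7 and 3 H2AK119ub peaks. Both lacked a peak in H2AK119ub replicate 1, the shortest Homeostasis list. Kcnh1, the ether-à-go-go channel, held 2, 0 and 1 BMI1 peaks and 0, 0 and 1 H2AK119ub peaks. The remaining voltage-gated genes with a peak were each found in 1 or 2 lists, among them Kcnc4 in BMI1 replicate 2 and H2AK119ub replicate 3, Kcnq3 in H2AK119ub replicates 2 and 3, Kcnh8 in BMI1 replicate 2, and Kcnf1, Kcng2, Kcnh5 and Kcnh6 in H2AK119ub replicate 2. The other 25, among them Kcnb2 (436.8 kb), the longest channel gene without a peak, and Kcnc2 (196.4 kb), held none.

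Of the 17 auxiliary subunit genes, 5 held a Homeostasis peak, 2 met the BMI1 criterion and 3 the H2AK119ub criterion, against length expectations of 1.96 and 2.51. The Kcnip genes encode calcium-binding partners of Kv4 channels. Kcnip1 (chromosome 11, 33629339 to 33993348) held 2, 4 and 2 BMI1 peaks and 2, 2 and 3 H2AK119ub peaks, and none fell in the window of Kcnmb1, which lies inside it. Kcnip4 (chromosome 5, 48389503 to 49525122), the longest channel gene at 1136 kb, held 1, 2 and 2 BMI1 peaks and 0, 7 and 2 H2AK119ub peaks. Kcnip3, a transcriptional regulator as well as a channel partner, held 0, 1 and 0 BMI1 peaks and 0, 3 and 1 H2AK119ub peaks. Kcnab1 and Kcnmb4 were found in BMI1 replicate 2 and H2AK119ub replicate 2. Kcnmb2 (298.3 kb) was the longest auxiliary gene without a peak.

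The 8 calcium- or sodium-activated channel genes had the highest share with peaks of the 5 families. A Homeostasis peak was found for 5, and 4 met the BMI1 criterion and 4 the H2AK119ub criterion, against length expectations of 1.59 and 2.02 with 10 classes and 1.86 and 2.36 with 20. They are also long, with a median of 121 kb. Kcnma1 (chromosome 14, 23292288 to 24005110), the large-conductance BK channel, held 2, 4 and 1 BMI1 peaks and 2, 5 and 3 H2AK119ub peaks.

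The small- and intermediate-conductance channel genes had fewer. Kcnn1 held 1, 1 and 0 BMI1 peaks and 0, 1 and 1 H2AK119ub peaks. Kcnn2 held 0, 1 and 1 BMI1 peaks and 0, 2 and 1 H2AK119ub peaks. Kcnn4, which sets the membrane potential of many non-excitable cells, held 1 BMI1 peak in every library and an H2AK119ub peak in replicate 2 alone. Kcnn1 (22.5 kb) and Kcnn4 (15.4 kb) were the shortest channel genes with peaks in 4 lists. Kcnt2, a sodium-activated channel, held 0, 2 and 0 BMI1 peaks and 1, 3 and 1 H2AK119ub peaks. Kcnn3 (152.3 kb) held none.

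Inward rectifiers and two-pore-domain channels had few peaks. Of 15 inward rectifiers, 3 held a Homeostasis peak, against a length expectation of 3.27. Kcnj16 (chromosome 11, 110968033 to 111027968), a pH-sensitive rectifier subunit, held 1 peak in each of the 6 lists. It is 59.9 kb long, and of the other genes in its length class 3.3% held a peak in all 6 lists. Its neighbour Kcnj2, which carries much of the resting current of ventricular muscle and lies within a span of 109 kb with Kcnj16, held none. Kcnj3 and Kcnj6, subunits of G protein-gated rectifiers, held 2 peaks each in H2AK119ub replicate 2 alone. Of 14 two-pore-domain channels only Kcnk2, the mechanosensitive TREK-1 channel, held a peak, 1 each in H2AK119ub replicates 2 and 3, against a length expectation of 3.35 for any list. Kcnk10 (148.8 kb) was the longest two-pore-domain gene without a peak.

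**Figure D3:**
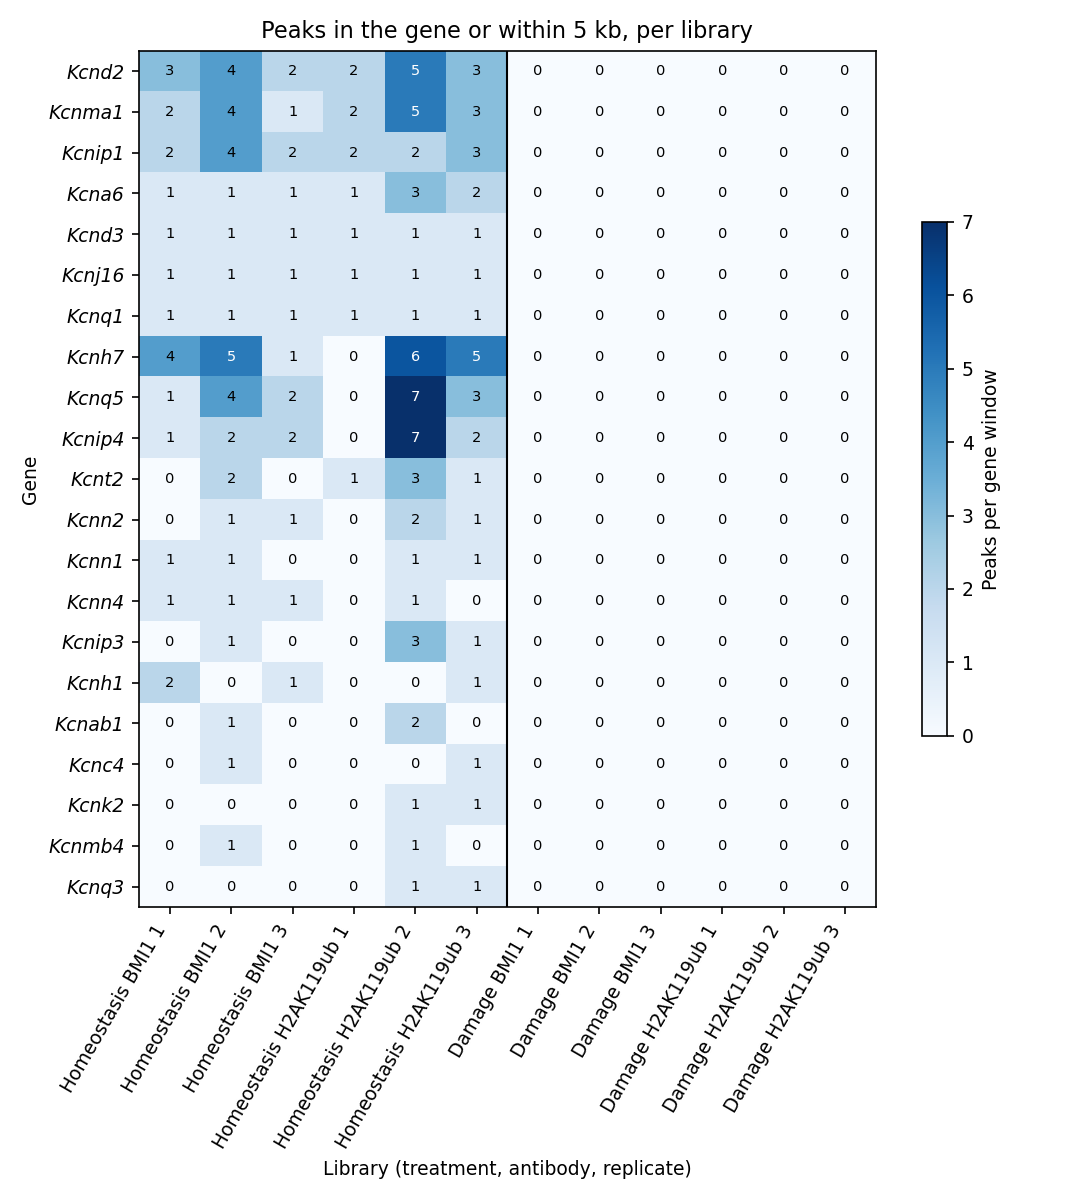
Peaks in the gene or within 5 kb for the 21 potassium channel genes with a peak in 2 or more Homeostasis lists (rows) in the 12 libraries (columns), with the count printed in each cell and shown by the depth of blue. The upper 7 genes have a peak in all 6 Homeostasis libraries, and every cell of the 6 Damage libraries is 0.

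A list of 16 channel genes of the main potassium currents of heart muscle, auxiliary subunits included, held 5 genes with a Homeostasis peak. The length expectation was 4.53 with 10 classes and 5.18 with 20. The BMI1 and H2AK119ub criteria were each met by 3, against 1.93 and 2.47 with 10 classes and 2.47 and 3.13 with 20. Of the 5, Kcnd2, Kcnd3 and Kcnq1 met both criteria and held a peak in all 6 lists, against 0.698 expected with 10 classes and 0.964 with 20. The heart muscle list was chosen with earlier results of these data known, and these counts were not tested. Kcnj3 was in H2AK119ub replicate 2 alone. No Homeostasis peak was found for 11 genes of the list: Kcne1, Kcnip2, Kcnh2, Kcna4, Kcna5, Kcnj2, Kcnj12, Kcnj5, Kcnj8, Kcnj11 and Kcnk3. Kcnip2, a partner of Kv4 channels in heart muscle, and Kcne1, a partner of Kcnq1, are much shorter genes than the 3 with peaks in all 6 lists. The third Kv4 gene, Kcnd1, is also short, at 14.5 kb, and held no peak.

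The peaks of the channel genes were merged into 80 sites, joining Homeostasis peaks that shared at least 1 bp, of which 74 lay in a gene body. A single list supplied 44 of the sites, 31 of these H2AK119ub replicate 2, and 36 were found in 2 or more lists. Peaks of both antibodies met at 32 sites (40.0%, against 42.1% of the 6926 sites in windows of all protein-coding genes). BMI1 alone gave 10 sites and H2AK119ub alone 38. Of the 36 sites in 2 or more lists, 32 held both antibodies. The 4 with a single antibody were in Kcnh1 (BMI1 replicates 1 and 3) and in Kcna6, Kcnk2 and Kcnq3 (H2AK119ub replicates 2 and 3 each).

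All 6 lists met at 9 sites (11.2%, against 6.89% of sites over all genes). Kcnd2 held 2 of them, chr6:21289141-21289251 at 73.85 kb and chr6:21671497-21671613 at 456.21 kb downstream of its start. Kcnip1 also held 2, chr11:33695239-33695347 and chr11:33754935-33755047, 14.61 and 74.31 kb upstream of the nearest start of its transcripts but inside the gene body. The others were chr14:23601719-23601829 in Kcnma1 (402.43 kb downstream), chr3:105474266-105474390 in Kcnd3 (22.44 kb downstream), chr11:111006363-111006477 in Kcnj16 (8.93 kb downstream of the nearest start) and chr7:143368351-143368488 in Kcnq1. The Kcnq1 site lay 58.63 kb inside the nearer gene end, and the promoter table has no entry for this gene.

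The ninth site, chr6:126745324-126745448, lay 4.71 kb upstream of a Kcna6 start and outside the gene, in the annotated noncoding gene Gm33581. The Kcnma1 site and the first Kcnip1 site also overlapped annotated noncoding genes, Gm51422 and Gm12119. All these positions are on GRCm38, and the annotation used gives gene boundaries without exons, so exon or intron was not assigned.

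Sites join only peaks that overlap, which limits how far their centres can lie apart, and nearby peaks that did not overlap count as separate sites. The 9 sites in all 6 lists were 109 to 138 bp wide, and the centres of their peaks spread over 8 to 37 bp. Over the 36 sites in 2 or more lists the spread had a median of 10.5 bp and a maximum of 103 bp. At the 32 sites with both antibodies the mean BMI1 centre and the mean H2AK119ub centre differed by a median of 4.75 bp and at most 53.5 bp.

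Most sites in genes with a start in the promoter table lay far from it. For the 72 sites in genes with a start in the promoter table, the distance to the nearest start had a median of 102 kb and ranged from 2.06 kb in Kcnn1 to 456 kb in Kcnd2. A start lay within 5 kb of 4 sites (5.56%), against 17.7% of the 5646 pairs of gene and site over all protein-coding genes. These 4 were the Kcna6 site found in all 6 lists, a Kcnf1 site in H2AK119ub replicate 2 and 2 sites of Kcnn1. Sites in genes without a start entry have no such distance. Among them, 2 Kcnn2 sites lay 0.61 kb (3 lists) and 0.78 kb (1 list) outside the lower-coordinate end of the gene. The channel genes with peaks are long, and the part of gene length in this lower share was not tested.

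**Figure D4:**
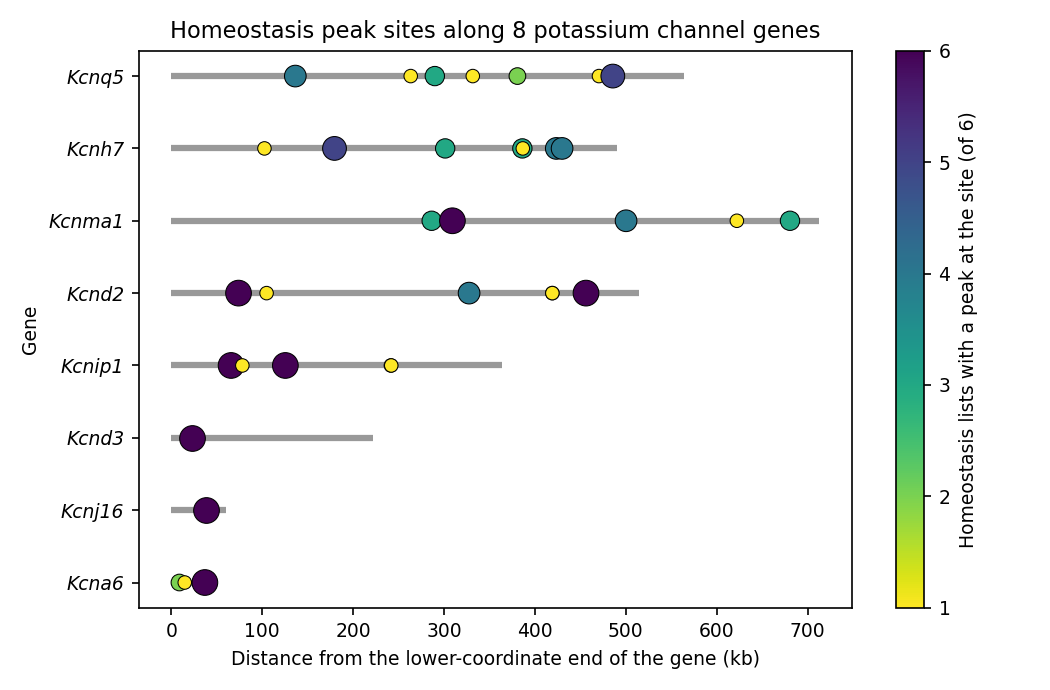
Homeostasis peak sites along 8 potassium channel genes, as distance in kb from the end of the gene with the lower coordinate; grey lines are gene bodies, and the size and colour of a circle give the number of the 6 lists with a peak at the site. Dark circles mark the sites found in all 6 lists, 2 each in Kcnd2 and Kcnip1 and 1 each in Kcnma1, Kcnd3, Kcnj16 and Kcna6.

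After paraquat no channel gene held a peak in any of the 6 Damage lists, whereas 62 protein-coding genes (0.283%) did. The Damage BMI1 lists held 19, 27 and 47 peaks and the Damage H2AK119ub lists 31, 68 and 25. Taking 3 peaks of the list as the limit for a count of 0, these lists allow a share of up to 15.8, 11.1 and 6.38% for BMI1 and 9.68, 4.41 and 12% for H2AK119ub. The upper bounds of the exact 95% binomial intervals are 17.6, 12.8 and 7.55% and 11.2, 5.28 and 13.7%, and all these limits are above the Homeostasis shares. At the Homeostasis shares, the 217 Damage peaks would hold 1.01 channel gene peaks, 0.412 for BMI1 and 0.602 for H2AK119ub. The Damage lists are therefore too short to show whether the share changed. The nearest Damage peaks lay 118.2 kb from Kcnh6 and 243.6 kb from Kcnn1, both in H2AK119ub replicate 2.

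Peak numbers per gene were compared between Homeostasis and Damage over both antibodies with a two-sided exact permutation test, treatment permuted within antibody, in 400 arrangements. With Benjamini-Hochberg adjustment over 4247 genes with a peak, 555 genes (13.1%) passed 0.05. Of the 29 channel genes tested, 7 passed this exact permutation test, each at its smallest p of 0.005 (adjusted p = 0.0383) and each higher in 6 of 6 Homeostasis libraries. They were the 7 genes with a peak in all 6 Homeostasis lists, with means of 3.0 BMI1 and 3.33 H2AK119ub peaks in Kcnd2 and 1.0 and 1.0 in Kcnd3, Kcnq1 and Kcnj16, against 0 in every Damage library. All 29 channel genes entered the test through Homeostasis peaks alone. Any gene with a peak in all 6 Homeostasis lists and none in Damage gets p = 0.005 in this exact permutation test. The 7 calls therefore restate that list and add no evidence to it. Kcnh7, Kcnq5 and Kcnip4, each with a peak in 5 Homeostasis lists, missed the threshold in the same exact test (adjusted p = 0.0843). At an unadjusted p under 0.05 in the same exact test there were 10 of the 29 channel genes, beside 1012 of all 4247 genes tested.

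No channel gene passed when any of the 3 Damage H2AK119ub libraries was left out, and 0 of all genes tested did. When any of the 3 Damage BMI1 libraries was left out, 6 channel genes passed, beside 474 to 475 of 4241 to 4246 genes tested. Without Homeostasis H2AK119ub replicate 1, 10 channel genes passed, beside 933 of 4219 genes tested. With any other single Homeostasis library left out 7 channel genes passed, beside 558 to 587 of 3166 to 4194 genes tested. All genes share the gap in list length between treatments, so a loss at these genes and a general shortfall of listed peaks after paraquat cannot be told apart.

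At Homeostasis the design cannot test BMI1 against H2AK119ub for single genes. In the exact permutation test of BMI1 against H2AK119ub libraries (20 arrangements, smallest p 0.1) no gene could pass, and none did at an unadjusted p under 0.05. The libraries of the 2 antibodies overlapped at all 29 channel genes, and 6 of the 4222 genes tested (0.142%) had libraries that did not overlap, so the overlap at the channel genes is no result about them.

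Sodium and calcium channel genes also held peaks at Homeostasis. Of 14 sodium channel genes, 4 met the BMI1 criterion and 3 the H2AK119ub criterion, against length expectations of 2.77 and 3.52. Of 26 voltage-gated calcium channel genes, 6 and 7 did so, against 5.28 and 6.72. A peak in all 6 lists was found for Scn8a among the sodium channels and for Cacng2 among the calcium channels. These counts were not tested against those of the potassium channel genes.

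A further 14 genes encode partners or relatives of potassium channels outside the Kcn symbols, and 5 of them held a Homeostasis peak, against a length expectation of 5.22. The BMI1 and H2AK119ub criteria were each met by 3: Dpp10 and Dpp6, which assist Kv4 channels, and Nos1ap, a regulator of cardiac repolarisation. Dpp10 held 3, 8 and 0 BMI1 peaks and 0, 15 and 10 H2AK119ub peaks over 1514 kb. Dpp6 held 2, 2 and 0 BMI1 peaks and 0, 4 and 2 H2AK119ub peaks. Nos1ap held 1, 2 and 1 BMI1 peaks and 0, 2 and 2 H2AK119ub peaks, and missed the threshold in the exact permutation test of Homeostasis against Damage (adjusted p = 0.0843). Abcc8 and Abcc9, the sulfonylurea receptors of ATP-sensitive channels, held no peak, and neither did Lrrc26, Lrrc38, Lrrc52 or Lrrc55.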

How the data were processed

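Reads were handled with Bowtie2 and HOMER 4.8 on GRCm38, per the submitters' processing notes. For peak calling, no settings are given in the sources used here. Each ChIP library has its own peak list, deposited by the authors. The deposited score is constant at 1 and was not used, and the depth is unknown. The 2 Input libraries were not analysed here. Peaks outside assembled chromosomes (143) stayed in list totals but met no gene. Genes and starts came from RefSeq tables of GRCm38.

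Groups followed the treatment and antibody in the labels. The members, gene lists and tests were chosen with earlier results of these data known. Values in every library were given for genes with a peak in 3 or more Homeostasis lists, up to 25, others were grouped, and the rule also named Kcnq1, the heart muscle list, the partner genes and the 5 longest genes with no peak, of which 2 genes are not reported here. The 3 promoters printed were chosen after the values were seen. Alternatives were windows of 10 and 50 kb or the gene body alone, peak centres, the library criterion, 20 length classes, peaks merged within 1 kb, autosomes only, peaks in other genes left out, presence of a peak, a filter on lists, the replicate block and leaving out each library. Computation used Python 3.11.15, numpy 2.4.6, pandas 2.3.3, scipy 1.17.1 and matplotlib 3.10.9, and the procedure was tested on simulated data. In these, changed genes had peaks in every Homeostasis library and none in Damage, and the other genes did not differ between treatments. The simulation lacked the general gap in list length, so it checked the code and not the calls.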

Additional observations from a re-analysis of the deposited data

How the results depend on the processing

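A window of 50 kb gave 31 genes for BMI1 and 39 for H2AK119ub, a BMI1 ratio to the length expectation of 1.35 and peak shares of 0.867% and 0.862%. With it 14 channel genes were called between treatments, beside 1536 of 10825 genes tested. A peak in 1 or more of 3 libraries gave a BMI1 ratio of 1.1 and 28 genes for H2AK119ub, and a peak in all 3 gave ratios of 1.55 and 1.72 and 8 genes for H2AK119ub. With 20 length classes the BMI1 ratio was 1.02. Leaving out 1 library, with a peak then required in both remaining libraries of the antibody, gave BMI1 ratios of 1.3 to 1.62, H2AK119ub counts of 8 to 16 and ratios of 1.12 to 1.68, and 0 to 10 called genes. The 0 came when any of the 3 Damage H2AK119ub libraries was left out (adjusted p = 0.0582 to 0.0583, exact permutation), where 0 of all genes tested were called as well. The 10 came without Homeostasis H2AK119ub replicate 1, where 933 of 4219 genes tested were called. As alternatives chosen after seeing the data, genes with a peak in any list numbered 22 without H2AK119ub replicate 2, and genes in all lists 10 without H2AK119ub replicate 1. No Damage list held a channel gene peak under any alternative run. The cause of these changes was not tested.

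With the replicate block, in which treatment is exchanged within replicate numbers, 0 channel genes were called, against 7 without it. Over all 4247 genes tested, 0 were called with the block and 555 without it. Its 64 arrangements allow a smallest exact p of 0.0312. The main test did not pair same-numbered libraries, and it was not settled if the numbers pair them. Correlations of same-numbered deviations between treatments were -0.0298 to 0.0316 for BMI1 and -0.0295 to 0.00848 for H2AK119ub. The Damage lists are so short that these correlations cannot show a pairing or its absence. Between antibodies at Homeostasis the correlations were 0.221, 0.416 and -0.0765 for replicates 1, 2 and 3, so a pairing is not excluded.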

Other observations

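Akap9, which encodes the anchoring protein yotiao of the Kcnq1 complex, held 4 peaks in Homeostasis H2AK119ub replicate 1, the shortest of the 6 Homeostasis lists, and 0 in each of the other 11 lists. Dpp6 and Dpp10 both lacked a peak in BMI1 replicate 3 and H2AK119ub replicate 1, the 2 shortest Homeostasis lists.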
